A study of Mus musculus with 76 samples.

Results

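Chemokine ligands are small secreted proteins that guide leukocytes. The 37 chemokine ligand genes measured here, of 20710 genes tested, were followed in alveolar septa and vessels microdissected from the lungs of 40 mice. A gene belongs to the set when its symbol is Ccl or Cxcl with a number and at most 1 further letter, or is Pf4, Ppbp, Cx3cl1 or Xcl1, and each gene is represented by the array feature with its highest mean over all 76 arrays. The mice were wild-type or carried a knockout of Noxo1, an organizer subunit of the NADPH oxidase NOX1, under the allele name C57BL/6-Noxo1(tm1881_17.2Arte). They were either controls or exposed to smoke of 3R4F research cigarettes, at 140 mg of particles per m3 for 6 h a day on 5 days a week from week 12 of age, for 3 or 8 months. Genotype, exposure, time and tissue give 16 groups. Each group had 5 arrays, except 4 in septa of wild-type controls at 3 months, in vessels of knockout controls at 3 months and in vessels of smoke-exposed mice of either genotype at 8 months. In wild-type control vessels at 3 months, 2 of the 5 arrays came from 1 mouse and were averaged. The knockout is of the whole animal, so the groups do not separate the cell types that lost the gene, and what the control mice breathed is not stated in the labels.

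A chemokine signals by binding a G protein-coupled receptor on a leukocyte, and its receptor decides which leukocyte it draws. CXC ligands with an ELR motif (Cxcl1, Cxcl2, Cxcl3, Cxcl5, Cxcl15 and the peptide cut from Ppbp) draw neutrophils, Cxcl9 and Cxcl10 draw T cells after interferon, and most CC ligands draw monocytes, macrophages, eosinophils or T cells. In smoke-exposed lung the family is known as a link between epithelium or macrophages and the leukocytes that enter the tissue.

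All values are log2 signals, normalized between arrays before deposit, and differences are log2 differences, given ± their standard error (SE) from limma. A level was called above background when it exceeded 3.214 in septa or 3.305 in vessels, the 95th percentile of the mean signal of 1324 odorant and vomeronasal receptor genes. Levels of different genes come from different probes and are not set against each other. Single-colour arrays give no read depth, so precision is limited by the number of arrays. Marker genes followed the tissue labels: 9 of 9 smooth muscle genes were higher in vessels, with a median difference of 4.09, and all 7 type 1 and 8 type 2 pneumocyte genes were lower, with medians of -2.41 and -1.30. Noxo1 itself had a signal near background, with a median of 2.37 in knockout and 3.43 in wild-type septa and of 2.904 and 3.802 in vessels. Its genotype difference of -1.32 ± 0.32 in septa and -0.84 ± 0.47 in vessels did not pass adjustment in limma (adjusted p = 0.9996 and 0.979), and the sources used here do not say whether the probe lies in the deleted part. Genes of the Y chromosome and Xist gave a female pattern in 4 of 19 control and 10 of 20 smoke arrays of septa. In vessels 3 of 19 control and 9 of 18 smoke arrays had it. Mouse 7, a knockout control at 8 months, had a male pattern in septa and a female one in vessels. Mouse 29, a wild-type control at 8 months, had the reverse. An exchange of their arrays, which would cross genotypes, cannot be told from the labels. Both mice were kept in the main tests and in the counts of mice with both tissues. Without their arrays no call among the members given full statistics changed. Whether groups shared cages or hybridization runs is not stated, and p values measure the spread between these arrays. In tissue pieces, fewer cells of a type and less RNA per cell cannot be told apart.

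Of the 37 ligands, 22 had a mean above background in septa and 27 in vessels. In septa 19 were above it in all 8 groups and 11 in no group, and in vessels 17 were above it in all 8 groups and 7 in no group. Ccl1, Ccl20, Ccl22, Ccl26, Ccl28 and Cxcl3 were above it in no group of either tissue. Cxcl11 belongs to the CXCR3 ligands by name, but RefSeq lists the mouse gene as a transcribed pseudogene, so its signal is no measure of a working ligand. It had the lowest residual SD of the family, with a level of 12.19 ± 0.25 (SD, n = 39) in septa and 12.22 ± 0.28 (SD, n = 37) in vessels. The neutrophil ligands Cxcl5 and Cxcl1 were at the other end in septa. Their residual SDs within groups, 2.49 for Cxcl5 and 2.40 for Cxcl1, were at percentiles 100 and 99.99 of all genes, whose median was 0.738. Across the family the median residual SD was 0.820 in septa and 1.23 in vessels, where all genes had 0.980. Above the median of all genes were 22 of 37 members in septa and 23 of 37 in vessels.

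**Figure D1:**
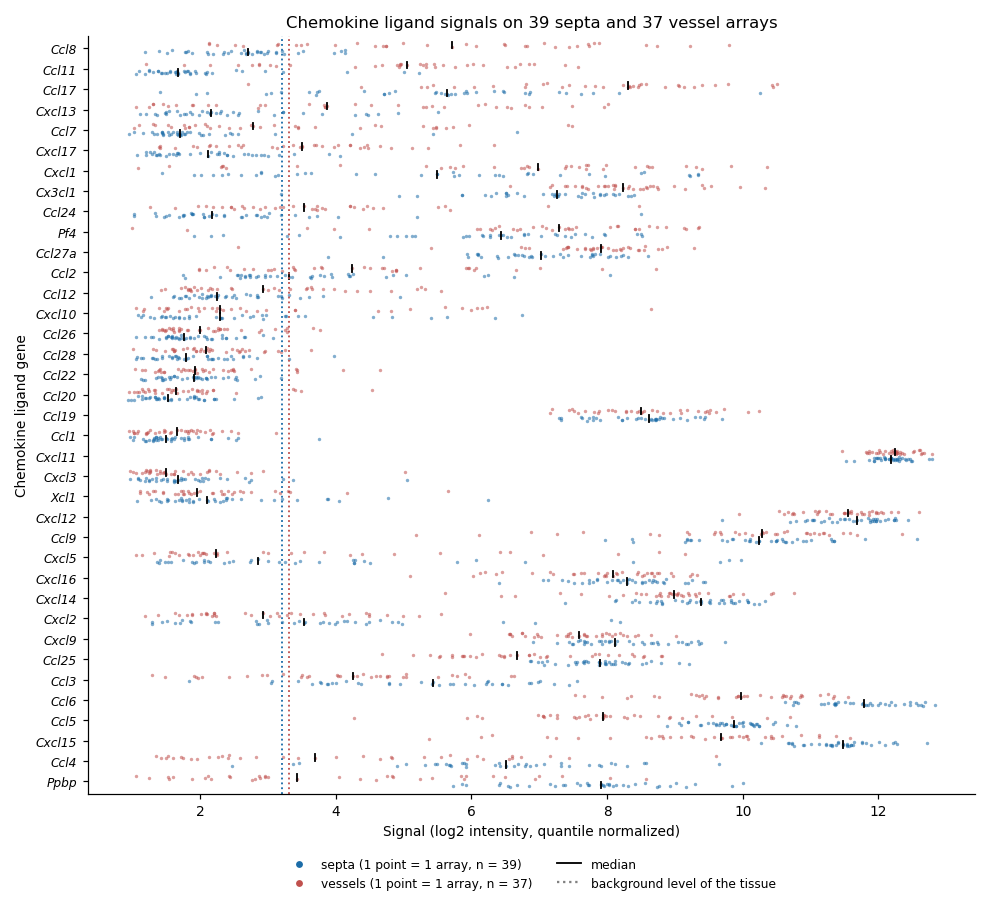
Log2 signal of the 37 chemokine ligands (vertical axis) in septa (blue) and vessels (red). Each point is 1 array, black ticks are medians and the dotted lines are the background levels of 3.214 in septa and 3.305 in vessels. Cxcl11 forms a tight cluster near 12.2, while Cxcl1 and Cxcl5 spread over most of the axis.

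The genes of the family lie in runs along the chromosomes. Among protein-coding genes of RefSeq, which hold 36 members and leave out Cxcl11, 23 members lay beside another member, in 5 runs. One run on chromosome 5 holds Cxcl5, Ppbp, Pf4, Cxcl3, Cxcl15, Cxcl1 and Cxcl2. The 150 bases before the start site of 6 of these genes are shown because neighbours in this run took different patterns below: Ppbp and Cxcl15 were lower in vessels, Pf4 was higher, and Cxcl2 was called for time. They were chosen after the values were seen. Sequences are from RefSeq on build GRCm38.p6, and all are on the plus strand. Capitals mark matches on either strand to the κB consensus of NF-κB and to the TATA box letters TATAAA.
Ppbp: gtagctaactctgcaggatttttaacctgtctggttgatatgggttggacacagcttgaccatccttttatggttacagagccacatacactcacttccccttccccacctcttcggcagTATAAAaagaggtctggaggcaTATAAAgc
Pf4: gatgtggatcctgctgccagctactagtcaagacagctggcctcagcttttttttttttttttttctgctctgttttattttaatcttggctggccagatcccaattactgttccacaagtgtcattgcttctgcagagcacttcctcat
Cxcl3: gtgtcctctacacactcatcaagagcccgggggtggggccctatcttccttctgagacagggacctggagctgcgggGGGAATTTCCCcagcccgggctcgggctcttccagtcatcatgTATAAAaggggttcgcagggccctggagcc
Cxcl15: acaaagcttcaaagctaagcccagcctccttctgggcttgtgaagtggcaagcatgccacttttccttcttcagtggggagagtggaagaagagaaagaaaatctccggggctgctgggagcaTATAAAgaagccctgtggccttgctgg
Cxcl1: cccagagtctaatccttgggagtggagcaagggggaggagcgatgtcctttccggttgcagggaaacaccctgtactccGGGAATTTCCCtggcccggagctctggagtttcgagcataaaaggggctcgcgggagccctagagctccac
Cxcl2: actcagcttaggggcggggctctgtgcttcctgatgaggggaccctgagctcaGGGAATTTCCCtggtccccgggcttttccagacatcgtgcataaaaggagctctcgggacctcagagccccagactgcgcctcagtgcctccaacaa
Ppbp covers chr5:90768368-90768517, Pf4 chr5:90772285-90772434, Cxcl3 chr5:90785951-90786100, Cxcl15 chr5:90794384-90794533, Cxcl1 chr5:90891095-90891244 and Cxcl2 chr5:90903749-90903898. The letters GGGAATTTCC stood at -71 from the start of Cxcl1, at -97 from that of Cxcl2 and at -73 from that of Cxcl3, and Ppbp, Pf4 and Cxcl15 had no κB match in these windows. Promoters of 250 bases before to 50 after a start were found for 26 members, 29 promoters in all. The κB consensus was in 8 of 29, against 8.46% of 32851 mouse promoters, TATAAA in 10 of 29, against 13.6%, and the core of the interferon-stimulated response element (GAAA, any 2 bases, GAAA) in 3 of 29, against 3.44%. Both strands were searched for each. A match is a description of the letters only.

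The family differed most by tissue. Of the 37 ligands, 19 differed between vessels and septa by limma with Benjamini-Hochberg adjustment over all genes, and 28.9% of all genes did. The 11 higher in vessels stand against 12.7% of all genes, and the 8 lower against 16.2%. The largest fitted difference downwards was in Ppbp, and those upwards were in Ccl8, Ccl11 and Ccl17. The order of these 3 is not settled, because Ccl8 and Ccl11 were below background in septa on average, which leaves bounds of at least 2.39 and 1.57 beside the 2.47 of Ccl17. Bounds here and below are taken from the means and leave out the SE. The median of the 37 differences was 0.09, against 0.02 for all genes, and members went both ways. At an unadjusted p under 0.05, 38.3% of all genes passed.

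The platelet and neutrophil ligands split. Ppbp encodes the platelet basic protein that is cut to a CXCR2 ligand. Its signal ran from 5.73 to 10.01 with a median of 7.91 in septa and from 1.06 to 8.57 with a median of 3.44 in vessels. The ranges overlap, but most vessel arrays lay below the lowest septal array. The difference for Ppbp was -3.66 ± 0.33 (adjusted p = 7.24e-15, limma with Benjamini-Hochberg), 12.7-fold lower in vessels, and septa were higher in 32 of 35 mice with both tissues. Only 19 of 37 vessel arrays were above background, against 39 of 39 septal arrays, so the size of the Ppbp difference is not settled. Cxcl15, lungkine, is made by lung epithelium. It ran from 10.27 to 12.71 with a median of 11.47 in septa and from 5.38 to 11.58 with a median of 9.68 in vessels, and the difference was -2.11 ± 0.25 (adjusted p = 5.59e-11), with septa higher in 34 of 35 mice. Pf4, platelet factor 4, lies beside Ppbp and went the other way. Pf4 ran from 1.92 to 8.51 with a median of 6.43 in septa and from 1.00 to 9.36 with a median of 7.29 in vessels, ranges that overlap almost wholly, and was higher in vessels by 0.90 ± 0.36 (adjusted p = 0.0481). Of the 6 neutrophil-attracting CXC ligands, Ppbp and Cxcl15 were lower in vessels and none was higher. Cxcl1, a main neutrophil ligand, ran from 1.44 to 9.35 with a median of 5.50 in septa and from 1.09 to 10.36 with a median of 6.99 in vessels, and its difference of 1.24 ± 0.51 did not pass (adjusted p = 0.0582). Of the neutrophil marker genes 9 of 11 were lower in vessels (median -1.72). Of the platelet genes 4 of 9 were lower (median -0.57), with 3 of the 9 positive. Only 5 of the 9 platelet genes had a mean above background in septa and 4 in vessels, so this list says little. The part of either cell type in the result was not tested.

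The macrophage inflammatory CC ligands were lower in vessels in 4 of 5 cases, with a median of -1.80. Ccl6, a rodent CC ligand made by macrophages and a CCR1 agonist, ran from 10.62 to 12.83 with a median of 11.78 in septa and from 7.53 to 11.55 with a median of 9.97 in vessels. The ranges overlap in part, and septa were higher in 34 of 35 mice. Its difference was -1.80 ± 0.15 (adjusted p = 4.71e-17), a 3.49-fold lower signal in vessels. Ccl5 (RANTES), which draws T cells and monocytes, ran from 8.89 to 10.79 with a median of 9.87 in septa and from 4.27 to 10.69 with a median of 7.94 in vessels, and differed by -1.94 ± 0.20 (adjusted p = 9.01e-13), with septa higher in 33 mice. Ccl4 (MIP-1β), a macrophage inflammatory protein, ran from 2.47 to 9.65 with a median of 6.52 in septa and from 1.35 to 9.61 with a median of 3.70 in vessels, and differed by -2.39 ± 0.41 (adjusted p = 2.01e-06). Its ranges overlap widely, and septa were higher in 28 mice. With 20 of 37 vessel arrays above background, against 38 of 39 septal arrays, the size of the Ccl4 difference is not settled. The neighbour of Ccl4, Ccl3 (MIP-1α), ran from 1.85 to 7.56 with a median of 5.44 in septa and from 1.30 to 6.62 with a median of 4.25 in vessels, and differed by -1.26 ± 0.31 (adjusted p = 0.00106). Ccl9 ran from 7.97 to 12.57 with a median of 10.24 in septa and from 5.18 to 12.34 with a median of 10.29 in vessels and did not pass. Alveolar macrophage genes were lower in vessels in 8 of 11 cases (median -1.03) and T and NK cell genes in 6 of 10 (median -1.12); their part in these differences was not tested.

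Several ligands for monocytes, eosinophils and type 2 responses were higher in vessels, and none was called lower. Among 4 monocyte-attracting CC ligands 3 were higher and none lower (median 0.98), and among 6 eosinophil and type 2 ligands 3 were higher and none lower (median 0.70). Ccl11 (eotaxin), the main CCR3 ligand for eosinophils, ran from 1.06 to 5.23 with a median of 1.68 in septa and from 1.198 to 7.57 with a median of 5.05 in vessels. Only 4 of 39 septal arrays were above background, against 28 of 37 vessel arrays, and vessels were higher in 31 of 35 mice. The fitted difference was 2.82 ± 0.29 (adjusted p = 8.09e-13), and against the septal background level vessels were at least 2.97-fold higher. Ccl8, a CCR8 ligand in mice, ran from 1.196 to 4.14 with a median of 2.70 in septa and from 2.13 to 9.80 with a median of 5.72 in vessels, with 7 septal and 30 vessel arrays above background. It differed by 2.88 ± 0.38 (adjusted p = 2.16e-09), at least 5.23-fold against the septal background. Ccl17 (TARC), which draws T helper 2 cells through CCR4, was measured in both tissues. It ran from 1.41 to 10.25 with a median of 5.64 in septa and from 2.71 to 10.50 with a median of 8.30 in vessels, and differed by 2.47 ± 0.37 (adjusted p = 9.93e-08), or 5.54-fold, with vessels higher in 30 of 35 mice. Ccl7, a CCR2 ligand, ran from 0.96 to 6.67 with a median of 1.70 in septa and from 1.02 to 7.49 with a median of 2.78 in vessels. It differed by 1.33 ± 0.33 (adjusted p = 0.000927 in limma), with 3 of 39 septal and 16 of 37 vessel arrays above background. Its vessel mean was only 1.12-fold above the septal background, so the size of the Ccl7 difference is not settled. Ccl24 (eotaxin-2) differed by 1.14 ± 0.32 (adjusted p = 0.00338) and Ccl12 by 0.57 ± 0.22 (adjusted p = 0.0470), Ccl12 with a mean below background in both tissues. Ccl24 had a septal mean of 2.52, below background, with 6 of 39 septal arrays above it. The size of its difference is therefore not settled. Ccl2, the main monocyte ligand, was at 0.63 ± 0.33 and did not pass (adjusted p = 0.155). Fibroblast genes were higher in vessels in 7 cases and lower in 2 (median 1.93), and monocyte and interstitial macrophage genes higher in 4 and lower in 2 of 8 (median 0.49); their part was not tested.

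Homeostatic, membrane-bound and mucosal ligands varied by gene. Cx3cl1 (fractalkine), which is held on endothelial and other cells and binds monocytes through CX3CR1, ran from 3.20 to 8.40 with a median of 7.27 in septa and from 6.57 to 10.32 with a median of 8.23 in vessels. Vessels were higher in 32 of 35 mice, and the difference was 1.22 ± 0.20 (adjusted p = 5.03e-07), or 2.32-fold. Cxcl13, the B cell ligand of lymphoid follicles, ran from 1.11 to 5.52 with a median of 2.16 in septa and from 1.05 to 8.01 with a median of 3.88 in vessels and differed by 1.72 ± 0.38 (adjusted p = 0.000209), while 5 of 6 B cell genes were lower in vessels (median -1.53). The septal mean of Cxcl13, 2.54, was below background, with 10 of 39 septal arrays above it. The size of the Cxcl13 difference is therefore not settled. Cxcl17, a mucosal ligand, ran from 1.07 to 4.06 with a median of 2.11 in septa and from 1.40 to 6.33 with a median of 3.497 in vessels. It differed by 1.33 ± 0.24 (adjusted p = 7.57e-06 in limma), with 3 of 39 septal and 21 of 37 vessel arrays above background. Its vessel mean was only 1.16-fold above the septal background, so the size of the Cxcl17 difference is not settled. Of the airway genes 6 of 8 were also higher in vessels (median 1.37). Ccl27a differed by 0.74 ± 0.24 (adjusted p = 0.0130), and its features may also take signal from near-identical copies of the gene. Ccl25, a thymic and gut ligand of CCR9, ran from 6.87 to 9.21 with a median of 7.90 in septa and from 4.68 to 8.82 with a median of 6.67 in vessels and was lower in vessels by this feature, at -1.01 ± 0.18 (adjusted p = 5.99e-06). Cxcl9, an interferon-induced CXCR3 ligand, ran from 6.91 to 9.74 with a median of 8.11 in septa and from 5.98 to 9.02 with a median of 7.58 in vessels and was likewise lower, at -0.78 ± 0.16 (adjusted p = 5.38e-05). Neither Ccl25 nor Cxcl9 passed in limma when all features of a gene were averaged, at -0.26 (adjusted p = 0.167) and -0.47 (adjusted p = 0.068). The features added in these averages had means below background, 2.68 and 2.05 for Ccl25 and 2.39 for Cxcl9. The kept features had means of 7.37 and 7.92. Cxcl11, Cxcl12 and Ccl19 did not pass, at 0.03, -0.17 and 0.09.

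**Figure D2:**
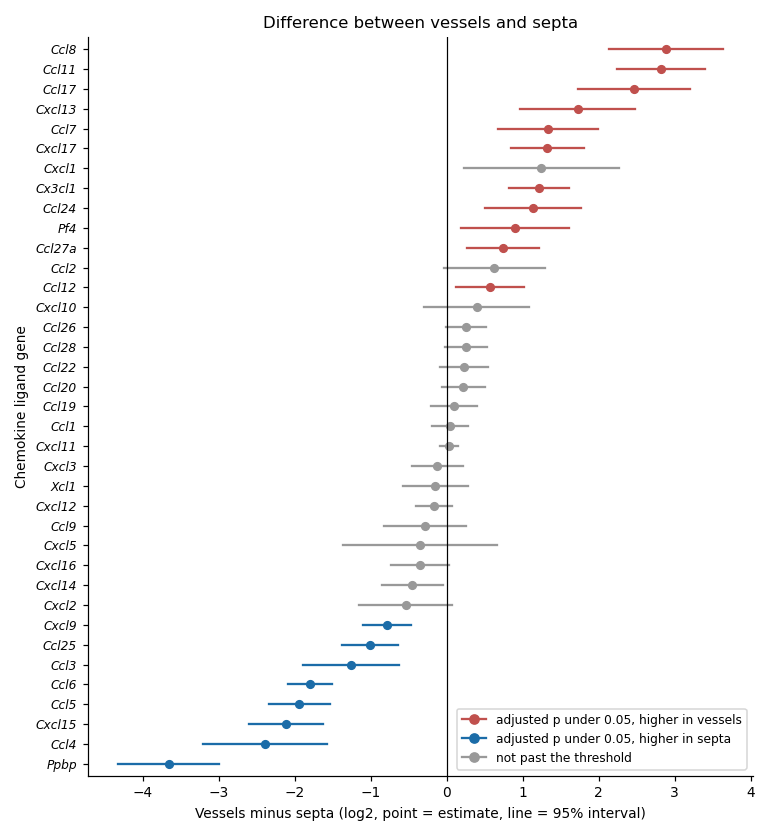
Vessels minus septa (log2, horizontal axis) for the 37 chemokine ligands, with 95% intervals as lines; red (higher in vessels) and blue (higher in septa) points passed the adjusted threshold of 0.05 in limma, and grey ones did not. Ppbp lies farthest left at -3.66, and Ccl8 and Ccl11 farthest right at 2.88 and 2.82.

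Different array features of 1 gene did not always agree on tissue. The family had 56 features, and 8 members had more than 1. The 10 features of Ccl2 correlated with each other at 0.718 to 0.865 over the arrays and all gave a positive difference, between 0.26 and 0.75. For Ccl25 the kept feature gave -1.01 and the others, whose means were below background, 0.26 and -0.03. For Cxcl12, whose 2 features correlated at -0.0189, the values were -0.17 and 1.91, so its tissue pattern depends on the feature. The features of Ccl19 gave 0.09, -1.203 and 0.82, and those of Cxcl9 -0.78 and, for the feature with a mean below background, -0.16. Of the Ccl27a features 1 pair correlated at 0.915 and gave 0.74 and 0.895, while the remaining feature correlated at -0.0462 and -0.0149 with them and gave -0.06. The second Cxcl11 feature gave -0.25 (95% interval -0.42 to -0.09), against 0.03.

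Of 24 chemokine receptor genes 21 were measured, and 9 differed between the tissues, against 28.9% of all genes. In vessels 1 was higher and 8 were lower, against 12.7% and 16.2% of all genes. The neutrophil receptor Cxcr2, which binds Ppbp and Cxcl1 products, had the largest difference at -3.99 ± 0.41 (adjusted p = 6.38e-13), and Cxcr1, the related receptor, was at -1.15 ± 0.34 (adjusted p = 0.00641). Cxcr4, the Cxcl12 receptor, was at -1.19 ± 0.10 (adjusted p = 7.35e-16), and Ackr2, a decoy that clears CC ligands, at -2.99 ± 0.33 (adjusted p = 9.15e-12). Ccr1, which binds Ccl3, Ccl5, Ccl6 and Ccl9, was at -1.27 ± 0.28 (adjusted p = 0.000210). Cxcr5, the Cxcl13 receptor, was at -1.04 ± 0.30 (adjusted p = 0.00578), Ccr6 at -0.98 ± 0.37 (adjusted p = 0.0353) and Ccrl2 at -0.90 ± 0.31 (adjusted p = 0.0198). Ccr8, a receptor for Ccl8, was the 1 higher in vessels, at 0.63 ± 0.24 (adjusted p = 0.0406).

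Time in the experiment changed 2 ligands in septa, Ccl6 and Cxcl2, both upwards, against 2.23% of all genes that were higher at 8 than at 3 months and 3.5% that changed in either direction. The comparison averages genotypes and exposures, so mice were older as well as longer in the exposure at 8 months. Ccl6 was 11.38, 10.74, 11.26 and 11.81 in wild-type controls at 3 months and 12.24, 11.99, 12.38, 11.63 and 12.19 at 8 months. In wild-type smoke mice Ccl6 was 11.36, 11.75, 10.62, 11.88 and 12.15 at 3 months and 12.68, 11.50, 11.78, 11.77 and 11.90 at 8 months. Knockout controls had 11.35, 11.36, 10.76, 12.10 and 11.41 and later 12.47, 11.19, 12.02, 12.55 and 11.36, and knockout smoke mice 11.15, 10.79, 10.81, 11.58 and 12.58 and later 12.83, 12.62, 11.85, 12.47 and 12.65. The arrays of the 2 times overlap, with medians of 11.36 and 12.11, and the mean was higher at 8 months in 4 of 4 conditions, by 0.38 to 1.10. Ccl6 rose by 0.70 ± 0.15 (adjusted p = 0.00454); in 1 fit over all 76 arrays it was at 0.69 and no longer passed (adjusted p = 0.0818).

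Cxcl2 (MIP-2), a CXCR2 ligand that macrophages and neutrophils make early in inflammation, was near background at 3 months. Wild-type controls had 2.27, 1.86, 1.70 and 1.87 at 3 months and 8.195, 3.20, 4.28, 3.46 and 6.94 at 8 months. In wild-type smoke mice it was 3.82, 2.87, 2.22, 2.83 and 2.99 at 3 months and 6.46, 3.00, 4.02, 3.39 and 4.98 at 8 months, with little overlap. Knockout controls had 4.92, 3.53, 1.29, 1.73 and 4.17 and later 8.06, 4.65, 4.83, 4.49 and 1.30, and knockout smoke mice 3.99, 3.55, 1.52, 1.43 and 2.84 and later 3.90, 4.12, 4.45, 1.63 and 3.76, both with overlap. Above background were 6 of 19 arrays at 3 months and 16 of 20 at 8 months. The Cxcl2 mean was 2.67 at 3 and 4.46 at 8 months, a rise of 1.79 ± 0.46 (adjusted p = 0.0172), and at least 2.37-fold against the background level. It kept its call in each fit that left out 1 array. Cxcl12, the ligand of CXCR4, was at -0.49 ± 0.15 (adjusted p = 0.0586; -0.08 with the mean of its 2 features) and Ccl17 at 1.40 ± 0.50 (adjusted p = 0.119), and neither passed. Among receptors Ccr1, at 1.68 ± 0.40 (adjusted p = 0.00918), and Cxcr1, at 1.89 ± 0.48 (adjusted p = 0.0162), rose. Neutrophil genes were higher at 8 months in 5 of 11 cases (median 0.74), with group means of the list between 8.59 and 8.82 at 3 and 8.97 and 9.60 at 8 months, and alveolar macrophage genes in 2 of 11 (median 0.86), with means of 6.31 to 6.71 and 6.69 to 8.03. Their part in the rise of Ccl6 and Cxcl2 was not tested.

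**Figure D3:**
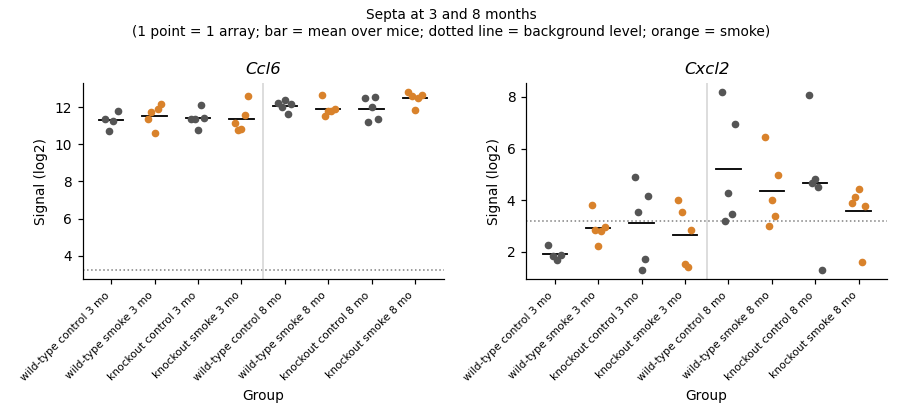
Log2 signal of Ccl6 and Cxcl2 in septa by genotype, exposure and time, each point 1 array (orange for smoke), each bar the group mean and the dotted line the background level. Points at 8 months lie higher on the whole, with medians of 12.11 against 11.36 for Ccl6 and 4.20 against 2.83 for Cxcl2.

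In vessels none of the 37 ligands was called for time, against 1.27% of all genes, although 8 had an unadjusted p under 0.05, against 13.9% of all genes. Cxcl11 came nearest, at -0.31 ± 0.09 (adjusted p = 0.0658), followed by Cx3cl1 at -0.73 ± 0.23 (adjusted p = 0.1003), Ccl9 at 1.33 ± 0.43 (adjusted p = 0.123) and Ccl19 at -0.68 ± 0.25 (adjusted p = 0.193). The Cxcl11 signal was 11.96 to 12.79 with a median of 12.28 at 3 months, and 11.46 to 12.38 with a median of 12.07 at 8 months, lower at 8 months in 4 of 4 conditions. Cxcl11 passed in 6 alternative fits, with adjusted p values down to 0.0202.

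Smoke changed none of the 37 ligands in any of the 8 comparisons of genotype, tissue and time by limma with Benjamini-Hochberg adjustment. Across all genes the shares called were 0.00483% in wild-type septa at 3 months and 0% in the other 7, and in the means over genotypes and times none of the 37 was called either, with 0% of all genes in both tissues. At an unadjusted p under 0.05, in septa 2 members passed in wild-type mice at 3 months (5.09% of all genes) and 5 at 8 months (5.79%), and in knockouts 1 (3.54%) and 3 (6.55%). In vessels 6 passed in wild-type mice at 3 months (6.12% of all genes) and 0 at 8 months (2.94%), and in knockouts 2 (6.2%) and 5 (4.3%). In the means 2 members passed in septa (7.7% of all genes) and 2 in vessels (5%). The 6 members in wild-type vessels at 3 months are 16.2% of the 37, and the 5 in wild-type septa or in knockout vessels at 8 months are 13.5%. The values below describe those with the lowest p and none of them passed the adjustment. On simulated data many genes, drawn at random from all genes, were shifted together by 1 to 4. A shift of 2 was recovered for 74% of such genes in the wild-type septa comparison at 8 months and for 34% in vessels. The adjustment is less strict when many genes are shifted together, so these shares may be too high for single ligands. The same holds for ligands with a large spread, such as Cxcl5 and Cxcl1 in septa. A response of this size or smaller could have gone undetected, most of all in vessels.

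**Figure D4:**
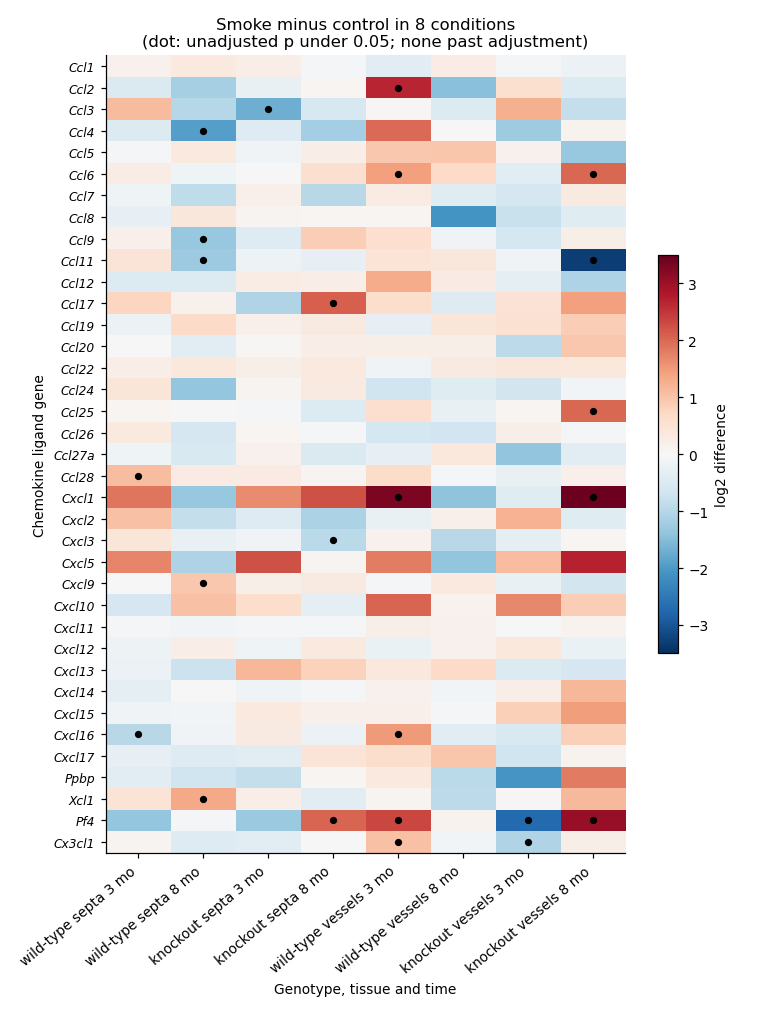
Smoke minus control (log2, colour scale) for the 37 chemokine ligands (rows) in the 8 comparisons of genotype, tissue and time (columns); a dot marks an unadjusted p under 0.05. No cell passed the adjusted threshold, and the largest differences in vessels, such as Cxcl1 at 3.30 in wild-type mice at 3 months, and Cxcl1 at 3.43 and Ccl11 at -3.28 in knockouts at 8 months, point both ways.

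In septa the family gave differences in both directions, none called. Cxcl16, a membrane-anchored ligand of CXCR6, was 8.66, 8.74, 9.15 and 8.07 in wild-type controls at 3 months and 7.74, 8.00, 7.42, 7.73 and 7.51 after smoke. All smoke arrays lay below all controls, as in 1.54% of all genes, and the difference was -0.98 ± 0.44 (adjusted p = 0.957). At 8 months Ccl4 was 9.65, 7.88, 8.57, 5.49 and 8.06 in wild-type controls and 8.29, 2.47, 6.52, 5.63 and 7.07 after smoke, a difference of -1.94 ± 0.81 (adjusted p = 0.813) with overlap. Averaged over genotypes and times Ccl4 was at -1.02 ± 0.41 (adjusted p = 0.572), below 0 in 4 of 4 conditions. The CCR1 ligand Ccl9 was 10.51, 10.93, 12.57, 10.62 and 10.59 in the same controls and 9.85, 7.97, 11.31, 10.24 and 9.23 after smoke, with overlap, at -1.32 ± 0.53 (adjusted p = 0.779). Cxcl9 was 7.27, 7.92, 7.50, 7.76 and 8.54 and 7.68, 9.11, 9.04, 9.17 and 8.67, with 4 of the smoke arrays above all controls, at 0.94 ± 0.42 (adjusted p = 0.844). In knockout septa at 3 months Ccl3 was 6.31, 7.02, 6.22, 6.25 and 3.65 in controls and 4.33, 3.78, 4.37, 3.06 and 5.42 after smoke. In 4 of the 5 controls Ccl3 was above all smoke arrays, and the difference was -1.70 ± 0.84 (adjusted p = 0.999). At 8 months Pf4 was at 2.05 ± 0.95 and Ccl17 at 2.10 ± 0.98 (both adjusted p = 0.739). Ccl17 arrays went from 6.07, 5.55, 4.87, 3.76 and 2.10 in controls to 8.18, 5.47, 5.92, 6.48 and 6.80 after smoke, with overlap. In that comparison 0 of 5 control and 4 of 5 smoke arrays had the female pattern. With a sex score from Xist and Y chromosome genes as a covariate, no ligand was called there either. The part of sex in the values was not tested beyond this fit. The other ligands with the lowest p in single septal comparisons were Pf4 at -1.36 ± 1.01, Cxcl1 at 1.88 ± 1.42 and Ccl3 at 1.11 ± 0.89 in wild-type mice at 3 months, and Ccl19 at 0.67 ± 0.35 at 8 months. Leaving out 1 array moved the Cxcl1 value between 0.91 and 3.26 and the Ccl3 value between 0.11 and 1.78. In knockouts they were Cxcl5 at 2.23 ± 1.40, Ppbp at -0.84 ± 0.61 and Pf4 at -1.29 ± 0.95 at 3 months, and Ccl6 at 0.57 ± 0.30 and Cxcl1 at 2.22 ± 1.34 at 8 months. On average over conditions Cxcl9 was at 0.36 ± 0.21, Cxcl1 at 1.11 ± 0.68 and Ppbp at -0.46 ± 0.31. Neutrophil genes in septa were positive in 1 of 11 cases under smoke on average (median -0.29), and in 0 of 11 in wild-type mice at 8 months (median -0.61), none called.

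In vessels Ccl6 had the lowest unadjusted p of the family and did not pass the adjusted threshold. Wild-type controls at 3 months had 8.30, 9.31, 7.53, 9.23 and 9.35 (the values 9.31 and 9.35 are of 1 mouse), and smoke mice 9.93, 9.63, 10.84, 9.92 and 9.91. All smoke arrays lay above all controls, as in 1.59% of all genes, and the difference was 1.45 ± 0.51 (adjusted p = 0.715). In knockout controls at 8 months Ccl6 was 7.66, 8.77, 10.59, 7.93 and 9.41, and 11.35, 10.61, 11.33 and 10.25 after smoke, with the lowest smoke array below the highest control and a difference of 2.01 ± 0.51 (adjusted p = 0.830). Over the alternatives this difference was 1.78 to 2.38 with an adjusted p of 0.0531 to 0.9999, lowest in 1 fit over all 76 arrays. That fit takes 1 spread per gene for both tissues, although the residual SD of Ccl6 was 0.520 in septa and 0.812 in vessels. Its p values in vessels may therefore be too low. The other pairs of groups overlapped: wild-type mice at 8 months had 9.63, 10.02, 10.71, 10.63 and 10.58 in controls and 10.69, 11.25, 11.14 and 10.86 after smoke, and knockouts at 3 months 9.97, 9.46, 10.06 and 10.87 and 8.35, 10.42, 9.42, 8.70 and 11.55. Averaged over the 4 conditions Ccl6 was at 0.93 ± 0.26 (95% interval 0.41 to 1.45, unadjusted p = 0.000876, adjusted p = 0.975), and in 1 fit over all 76 arrays the adjusted p was 0.130. The difference of this smoke effect from that in septa was 0.74 ± 0.29 (adjusted p = 0.739), and none of the 37 ligands was called for it, against 0.00966% of all genes; 1 had an unadjusted p under 0.05, against 6.18% of all genes. Ccl25 was next to Ccl6 in that comparison, at 0.70 ± 0.36 (adjusted p = 0.821). Alveolar macrophage genes were positive under smoke in 10 of 11 cases in vessels (median 0.70) and neutrophil genes in 10 of 11 (median 0.41), none called, and smooth muscle genes in 0 of 9 (median -0.36). Their part in the Ccl6 values was not tested.

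The platelet ligand Pf4 took opposite signs in vessels, with a positive smoke difference in 3 of 4 conditions. At 3 months it was 6.90, 6.61, 6.31, 3.98 and 6.28 in wild-type controls and 9.16, 9.14, 8.42, 6.35 and 8.14 after smoke, at 2.34 ± 1.01 (adjusted p = 0.778). Knockouts at the same time had 8.47, 9.34, 7.03 and 7.55 in controls and 4.50, 6.67, 7.38, 1.00 and 7.29 after smoke, at -2.73 ± 1.01 (adjusted p = 0.680). In knockouts at 8 months Pf4 was 3.58, 6.08, 7.43, 1.81 and 6.13 in controls and 8.62, 7.19, 7.10 and 9.36 after smoke, at 3.06 ± 1.01 (adjusted p = 0.9995), with overlap in all 3 comparisons. In wild-type mice at 8 months, where Pf4 was not among the lowest p values, 1 of 4 smoke arrays lay above all controls and 1 below. The difference between the genotypes at 3 months was -5.07 ± 1.43 (adjusted p = 0.618), the largest of the family in that comparison. Platelet genes were positive in 4 of 9 cases in wild-type vessels at 3 months (median -0.05), in 3 of 9 in knockout vessels at 3 months (median -0.30) and in 7 of 9 at 8 months (median 0.26), none called. Only 4 of these 9 genes had a mean above background in vessels, so the signs of the others say little. The part of platelets in the Pf4 values was not tested.

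Of the 8 comparisons, wild-type vessels at 3 months also held the most members with a positive smoke difference, 28 of 37, against 49.3% of all genes. The median was 0.34, against -0.01 for all genes. Other comparisons went the other way, with 15 of 37 positive in knockout vessels at 3 months (median -0.25, 49.0% of all genes). In wild-type septa at 8 months 11 of 37 were positive (median -0.26, 46.2% of all genes). Cxcl1 was 7.39, 5.55, 1.09, 2.30 and 7.95 in controls and 7.46, 7.40, 5.75, 8.40 and 9.40 after smoke, at 3.30 ± 1.44 (adjusted p = 0.778). The monocyte ligand Ccl2 was 3.04, 3.01, 3.37, 2.20 and 4.51 in controls and 7.02, 5.24, 3.10, 8.72 and 4.68 after smoke, at 2.66 ± 1.04 (adjusted p = 0.775). Controls and smoke arrays overlapped in both genes. Monocyte and interstitial macrophage genes were positive in 6 of 8 cases there (median 1.07), alveolar macrophage genes in 8 of 11 (median 0.58) and neutrophil genes in 8 of 11 (median 0.45), none called, and 1 of 5 control and 0 of 5 smoke arrays had the female pattern.

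In knockout vessels at 3 months Cx3cl1, which had the lowest p after Pf4, was 9.43, 8.39, 8.63 and 9.53 in knockout controls and 8.59, 7.38, 8.67, 7.41 and 7.63 after smoke, at -1.06 ± 0.46 (adjusted p = 0.723) with overlap. At 8 months Ccl11, which followed Ccl6, was 6.02, 6.85, 4.94, 6.52 and 7.38 in controls and 5.76, 2.56, 1.77 and 2.15 after smoke, where 3 of 4 smoke arrays were below background and 1 lay among the controls, at -3.28 ± 0.97 (adjusted p = 0.9995). Ccl25 was 5.39, 5.54, 6.48, 5.72 and 4.68 in controls and 7.00, 8.79, 6.49 and 8.02 after smoke, with all smoke arrays above all controls, as in 1.51% of all genes, at 2.01 ± 0.66 (adjusted p = 0.9995). With the mean of all its features, which do not correlate and of which only the kept feature had a mean above background, Ccl25 was at 0.87. In this comparison neutrophil genes were positive in 11 of 11 cases (median 1.00), monocyte and interstitial macrophage genes in 8 of 8 (median 0.69) and alveolar macrophage genes in 8 of 11 (median 0.71), none called, and 1 of 5 control but 3 of 4 smoke arrays had the female pattern. The part of these cell types in these values was not tested. With a sex score as a covariate, no ligand was called in this comparison either. Whether the response differed between times was not tested. In wild-type vessels at 8 months the lowest p values were those of Ccl8 at -2.11 ± 1.41, Ccl2 at -1.48 ± 1.04, Ccl6 at 0.67 ± 0.51 and Ccl5 at 0.98 ± 0.79. In knockout vessels at 3 months Ccl27a at -1.38 ± 0.74 and Ppbp at -2.08 ± 1.23 followed Pf4 and Cx3cl1, with Ccl27a between -2.06 and -0.38 when 1 array was left out, and on average over conditions Ccl25 was at 0.60 ± 0.33 and Cxcl1 at 1.23 ± 0.72.

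**Figure D5:**
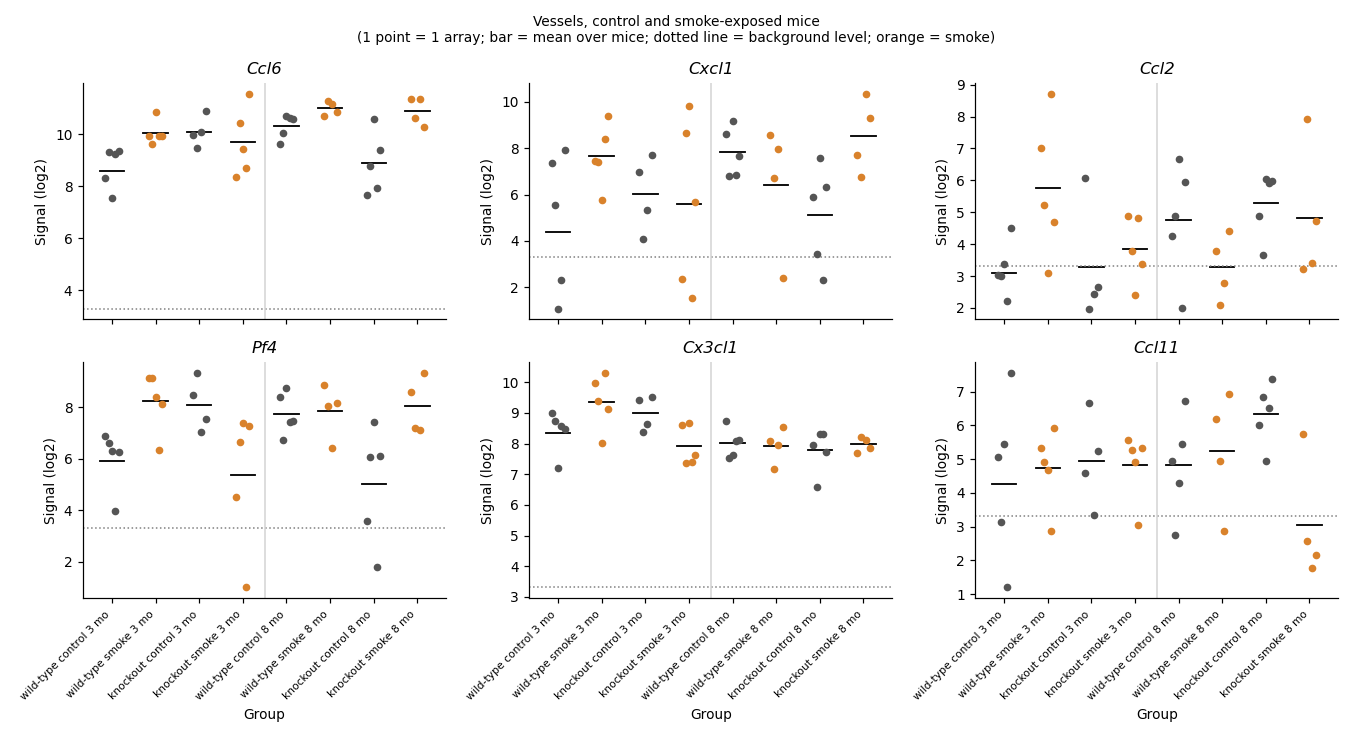
Log2 signal of 6 ligands, Ccl6, Cxcl1, Ccl2, Pf4, Cx3cl1 and Ccl11, in vessels by genotype, exposure and time, each point 1 array (orange for smoke), each bar the mean over mice and the dotted line the background level. Ccl6 lies higher after smoke in wild-type mice at 3 months and knockouts at 8 months, and Ccl11 is low in 3 of 4 knockout smoke arrays at 8 months.

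Cxcl10, an interferon-induced CXCR3 ligand, had a positive smoke difference in vessels in 4 of 4 conditions. In wild-type mice it was 2.23, 3.40, 6.08, 1.87 and 5.09 in controls and 8.65, 1.98, 5.86, 5.61 and 6.16 after smoke at 3 months, and 1.16, 2.26, 1.77, 4.62 and 2.84 and 1.49, 2.34, 4.81 and 1.97 at 8 months. Knockouts had 2.46, 1.69, 1.05 and 1.52 in controls and 2.29, 2.98, 2.59, 2.67 and 6.24 after smoke at 3 months, and 1.52, 1.47, 3.40, 2.17 and 1.17 and 5.99, 1.40, 1.81 and 2.05 at 8 months. Most arrays were below background. In wild-type mice at 3 months most smoke arrays were above it, up to 8.65, and controls reached 6.08. In knockouts single smoke arrays reached 6.24 at 3 months and 5.99 at 8 months. The mean difference was 1.18 ± 0.52 (adjusted p = 0.977). None of the 21 receptors was called for mean smoke in either tissue, against 0% of all genes. At an unadjusted p under 0.05 in limma 1 passed in septa (7.7% of all genes) and 3 in vessels (5%). The lowest p values were those of Cxcr6 in septa, at -0.79 ± 0.30 (adjusted p = 0.561), and of Cxcr4 in vessels, at 0.63 ± 0.18 (adjusted p = 0.975).

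Genotype changed none of the 37 ligands in either tissue, and 0% of all genes in both. At an unadjusted p under 0.05 1 member passed in septa and 1 in vessels, against 3.98% and 4.86% of all genes. Cxcl12 was lower in knockout septa by this measure, at -0.34 ± 0.15 (adjusted p = 0.9996), and Cxcl10 in knockout vessels, at -1.16 ± 0.52 (adjusted p = 0.979). Next in septa came Cx3cl1 at -0.58 ± 0.31, Ccl24 at -0.70 ± 0.39 and Xcl1 at -0.53 ± 0.30, and in vessels Ccl17 at 1.01 ± 0.54, Pf4 at -0.81 ± 0.51 and Ccl25 at 0.46 ± 0.33. No smoke difference was called as unlike between genotypes, with 0 of 37 members and 0% of all genes at each of the 4 combinations of tissue and time. At an unadjusted p under 0.05, 2 members passed in septa at 3 months (3.37% of all genes) and 1 at 8 months (4.34%), and in vessels 4 at 3 months (6.03%) and 7 at 8 months (3.14%). In vessels at 8 months the 4 with the lowest p were Ccl11 at -3.68 ± 1.38, Ccl25 at 2.28 ± 0.93, Cxcl1 at 4.83 ± 2.03 and Cxcl5 at 4.08 ± 1.96, all with an adjusted p of 0.9999. With the mean of all features Ccl25 was at 0.47. In septa at 8 months the lowest was Ccl9, at 2.19 ± 0.74 (adjusted p = 0.999), followed by Cxcl1 at 3.54 ± 1.90, Cxcl13 at 1.55 ± 0.89 and Ccl6 at 0.73 ± 0.42. At 3 months it was Ccl3, at -2.81 ± 1.22 (adjusted p = 1), followed by Cxcl16 at 1.30 ± 0.60, Ccl17 at -1.79 ± 1.43 and Cxcl15 at 0.47 ± 0.43. In vessels at 3 months Cx3cl1, at -2.09 ± 0.65 (adjusted p = 0.692), Ccl6, at -1.85 ± 0.73 (adjusted p = 0.732), and Cxcl16, at -2.03 ± 0.94 (adjusted p = 0.816), followed Pf4.

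Neighbouring members were set against each other across arrays, after the group means had been taken away, in 8 pairs and both tissues (16 relations, permutation p adjusted by Benjamini-Hochberg). The pairs were those next to each other with both means above background in both tissues. Ccl3 and Ccl4, which lie side by side, moved together in septa, with Pearson r = 0.552 and Spearman rho = 0.541 over 39 arrays (adjusted permutation p = 0.00384 and 0.00656), and r was 0.494 without the 2 arrays farthest out in Ccl3. Ppbp and Pf4, both stored in platelet granules, had r = 0.518 and rho = 0.490 in septa (adjusted permutation p = 0.0072 and 0.0145; r = 0.397 without 2 arrays), though their tissue differences were opposite. Ccl6 and Ccl3 had r = 0.410 and rho = 0.399 in septa (adjusted permutation p = 0.0390 and 0.0689). In vessels the same pair had r = 0.454 and rho = 0.351 (adjusted permutation p = 0.0284 and 0.147), and r was 0.237 without 2 arrays, so that relation rests on them. The other relations did not pass in Pearson's r. Among them, Ccl3 and Ccl4 had r = 0.053 and rho = 0.046 in vessels, and Ppbp and Pf4 had r = 0.285 and rho = 0.203 there.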

How the data were processed

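Total RNA of septa and vessels, microdissected from lungs of 40 mice, was extracted by RNeasy Micro and amplified by Ovation PicoSL WTA V2, per the labels' protocols. The product carried Cy5 and was read on 1-colour Agilent arrays. The submitters left out 4 arrays without signal, per the series' design text. The deposited values are log2 intensities. The submitters' processing notes name limma without a version. Quantile normalization by the authors was read from the values (array medians 3.19 to 3.192, quartiles within 0.0024), and the sources used here do not name the background correction.

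Of 62976 features 31465 had a gene symbol, 29050 were matched by accession to RefSeq and 2933 took a newer symbol. The 671 features that lacked a value on some array were left out, and the feature with the highest mean over all arrays stood for its gene, leaving 20710 genes. Ccl21a, Ccl21b, Ccl21c and Ccl27b had no feature under these rules.

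The main tests used limma 3.58.1 (R 4.3.3). The 8 group means of a tissue were estimated in 1 linear model, and eBayes was run with a trend. A pair of vessel arrays of mouse 25 was averaged. Vessels and septa were compared over all 76 arrays with duplicateCorrelation by mouse (0.0262). Adjustment was by Benjamini and Hochberg at 0.05 over all genes, in 20 comparisons. Input was parsed by data.table (version 1.17.8). Summaries and figures were made with pandas 2.3.3, numpy 2.4.6 and matplotlib 3.10.9 under Python 3.11.15. The mean smoke comparison and the wild-type smoke comparison at 8 months were first tested in both tissues on simulated arrays holding known shifts. The time, genotype, interaction and tissue comparisons and the correlations were not tested in this way. Full statistics are given for up to 15 members past the adjustment, for the 4 members with the lowest p among those above background in each other comparison, and for receptors past the adjustment. Other members that passed for tissue are named with their difference. Members and lists were chosen with earlier results of these data known. Alternatives changed the probe rule, the filter on dim genes, the normalization, array weights, the blocks, the groups in the fit, a sex score and the arrays left out.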

Additional observations from a re-analysis of the deposited data

Results flagged for a closer look

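Among 64 member groups examined, 3 had 1 array far from the others, a gap that chance gives in about 1 in 20 groups. Ccl6 in vessels of wild-type smoke mice at 3 months was 10.84 in replicate 3 and 9.63 to 9.93 in the others, a gap of 0.758 of the group's range. Ccl9 in septa of wild-type controls at 8 months was 12.57 in replicate 3, against 10.51 to 10.93 (gap 0.794). Ccl3 in septa of knockout controls at 3 months was 3.65 in replicate 5, against 6.22 to 7.02 (gap 0.764).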

How the results depend on the processing

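No result reversed. For time in septa, where 2 ligands were called, 1 fit over 76 arrays called 1 (Ccl6 at 0.69, adjusted p = 0.0818, no longer passed), and leaving out 1 array gave 2 to 3. Cxcl12 passed in septa with array weights (adjusted p = 0.0383), without genes under the 25th percentile (0.0487) and with quantile normalization within the tissue (0.0291), but was at -0.08 (0.925) with the mean of all probes, and Ccl17 passed without replicate 5 of the wild-type controls at 8 months (1.62, adjusted p = 0.0467). For time in vessels, where no ligand was called, 1 fit over 76 arrays called 2 (Cxcl11 at -0.32, adjusted p = 0.0202, and Ccl9 at 1.37, adjusted p = 0.0249). With both arrays of mouse 25, without genes under the 25th percentile, with the mean of all probes and with quantile normalization within the tissue the count was 1, Cxcl11 each time, and leaving out 1 array gave 0 to 1 (1 without replicate 3 of the knockout smoke mice or replicate 2 of the wild-type smoke mice at 3 months). Ccl25 (-0.26, adjusted p = 0.167) and Cxcl9 (-0.47, adjusted p = 0.068) lost their tissue call with the mean of all probes. Their probes other than the kept ones had means below background. The tissue count was 17 to 20 when 1 array was left out and 18 to 20 under the other alternatives, and the tissue calls of Pf4, Ccl12, Ccl24 and Ccl27a were followed in these counts only. No smoke, genotype or interaction count of the family moved from 0 under any alternative run. The causes were not tested. The sex score used Xist, Eif2s3y, Kdm5d and Uty, because Ddx3y was not measured under the rules.

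With the replicate number as a block, 1 ligand was called for time in vessels (Cxcl11 at -0.31, adjusted p = 0.0331), and no other count of the family, nor any other call among the members given full statistics, changed. Residuals of same-numbered arrays correlated at a mean of 0.0124 in septa and 0.0249 in vessels, so the numbers do not pair the mice.

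Among all genes, 1 fit over 76 arrays called 225 for time in septa (725 in the fit by tissue) and 1111 for time in vessels (262), and for smoke 34 in wild-type vessels at 3 months, 23 and 2 in knockout vessels at 3 and 8 months, 5 in vessels on average and 13 for the difference between genotypes in vessels at 3 months, all 0 in the fit by tissue. It called 1 for genotype in vessels (0) and 0 for smoke in wild-type septa at 3 months (1), as did the fit of only the groups compared. The fit over 76 arrays takes 1 spread per gene for both tissues, although the median residual SD was 0.738 in septa and 0.980 in vessels. Its p values may therefore be too low in vessels and too high in septa. A sex covariate gave 162 for time in vessels. Averaged smoke in vessels gave 1 with both arrays of mouse 25 and with the mean of all probes, knockout vessels at 8 months gave 1 with the replicate block, and the smoke difference between tissues gave 0 with mouse as a fixed factor (2).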
